A study of Tribolium castaneum with 8 samples.

Results

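The cells described here are those that the authors' deposited annotation calls Mesodermal/muscle progenitors, found in a sort that was meant to enrich neuroblasts, the stem cells from which the insect nervous system is built. They were chosen by this label alone, and 2884 of 31573 annotated cells carried it. Of these, 2365 were among 21148 cells of the red flour beetle Tribolium castaneum and 519 among 10425 cells of Drosophila. The beetle cells came from 8 single-cell RNA libraries (10x Genomics droplets) of embryos 35 to 50 hours old, without treatment, all of the genotype turbo GFP. This green fluorescent reporter was driven through Gal4 by an enhancer trap, in which the inserted driver responds to regulatory DNA near its insertion site; the sources used here do not name that site. The labels list strains GoGal41519 to GoGal41526, 1 per library in order, although the design text speaks of a single line, so the strain was not used as a difference. All 8 libraries were sorted as live cells, and no unsorted library was analysed here, so the shares give neither the makeup of the embryo nor the yield of the sort. For the Drosophila cells, the sources used here state no stage, genotype or way of isolation. The deposited annotation of both species is named for brain NBs (neuroblasts).

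In insect embryos the mesoderm forms at the ventral side and moves inward, and it gives rise to body wall muscle, visceral muscle, heart and fat body. Muscle progenitors depend on the transcription factor Mef2, known from Drosophila, and mature muscle fibres make the myosin heavy chain Mhc. Blood cells (plasmatocytes are the phagocytic kind) also come from head mesoderm, whereas neuroblasts delaminate from the neuroectoderm and bud off ganglion mother cells (GMC). The mesodermal label therefore belongs to another germ layer than the cells the reporter was chosen for. The deposited table gives a label and a species for each barcode and no expression values, so neither Mef2 nor Mhc could be checked and the label is used as deposited.

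The number of annotated cells set how well each library could be measured. Mesodermal cells numbered 235 of 1754 in library 1, 186 of 1974 in library 2, 4 of 77 in library 3 and 22 of 392 in library 4. They numbered 485 of 3726 in library 5, 183 of 1852 in library 6, 445 of 3734 in library 7 and 805 of 7639 in library 8. Library 8 thus held 34.0% of all beetle cells with the label, while libraries 3 and 4 together had 26 such cells, and their values carry wide counting error. The labels do not state whether each library had its own collection of embryos, so p-values and the spread over the 8 libraries measure differences between these samples that may be technical. Of the beetle barcodes, 72 occurred in 2 libraries each (0.681% of cells), and none within a library more than once (0 cells). Among those cells 19 had the mesodermal label, always paired with another label. The label shares of the libraries alone would give 0.937 pairs of 2 mesodermal cells, so the absence of such pairs is not informative. With all cells of shared barcodes left out, the mean share outside NBs I given below was still 12.2%.

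Because NBs I, the label named for type I neuroblasts, makes up very different shares of the 2 species, the mesodermal cells were first measured among the cells outside NBs I. Their share there was 12.2% ± 3.38 in Tribolium (SD, n = 8 libraries) and 12.6% in the pooled Drosophila set (519 of 4120 cells, exact 95% interval 11.6% to 13.6%). Drosophila lay in the middle of the beetle libraries, with 4 libraries below it and 4 above. The beetle mean was 0.970 times the Drosophila value, and the difference of 0.373 percentage points was 0.110 of the SD between libraries. This ratio crossed 1 with the weight given to the small libraries: it was 1.10 over the 6 libraries of 500 cells or more.

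Among all annotated cells, by contrast, the mesodermal share was 9.87% ± 3.10 in Tribolium (SD, n = 8) and 4.98% in Drosophila, 1.98 times as high in the beetle. All 8 libraries lay above the fly value. The intervals of library 3 (1.43% to 12.8%) and library 4 (3.55% to 8.37%) nevertheless overlapped that of the fly (4.57% to 5.41%). A share of all cells is the share outside NBs I multiplied by the part of the cells that lies outside NBs I. That part was 79.9% ± 3.91 in the beetle (SD, n = 8) and 39.5% in the fly, 2.02 times as high, with a lowest library of 74.0%. The pooled fly set thus differed from the beetle libraries in the part of the cells outside NBs I. In the mesodermal share of that remainder it lay within the range of the libraries. Whether species, stage, way of isolation or the assignment of labels lies behind the difference was not tested and cannot be told apart here. The deposited annotation is named as a label transfer between the species, and its direction is not stated. No test between species was made, since a single pooled set against 8 libraries cannot give an exact permutation p below 0.111, even one-sided.

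Library by library, the share outside NBs I was 16.0% in library 1 (exact 95% interval 14.2% to 18.0%), 15.3% in library 5 (14.1% to 16.6%) and 14.7% in library 7 (13.4% to 16.0%). It was 12.9% in library 8 (12.1% to 13.8%), 12.3% in library 6 (10.7% to 14.1%) and 12.1% in library 2 (10.5% to 13.8%). Library 4 had 7.48% (4.75% to 11.1%), and library 3 had 7.02% on 4 cells (1.95% to 17.0%). No neighbours in this order had intervals that lay apart, although 9 of the 28 pairs of libraries did. Libraries 1 and 5 lay above the pooled cells of the other libraries with intervals apart, and library 4 lay below them. Against the Drosophila interval, libraries 1 and 5 were above, library 4 was below and the remaining 5 overlapped it. These intervals cover counting error only. The pooled fly set gives no spread between samples, so a library with intervals apart need not differ from the fly as a species. The chi-square of the libraries was 5.28 times its degrees of freedom, where counting error alone gives about 1, and it stayed at 4.96 times over the 6 libraries of 500 cells or more.

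**Figure D1:**
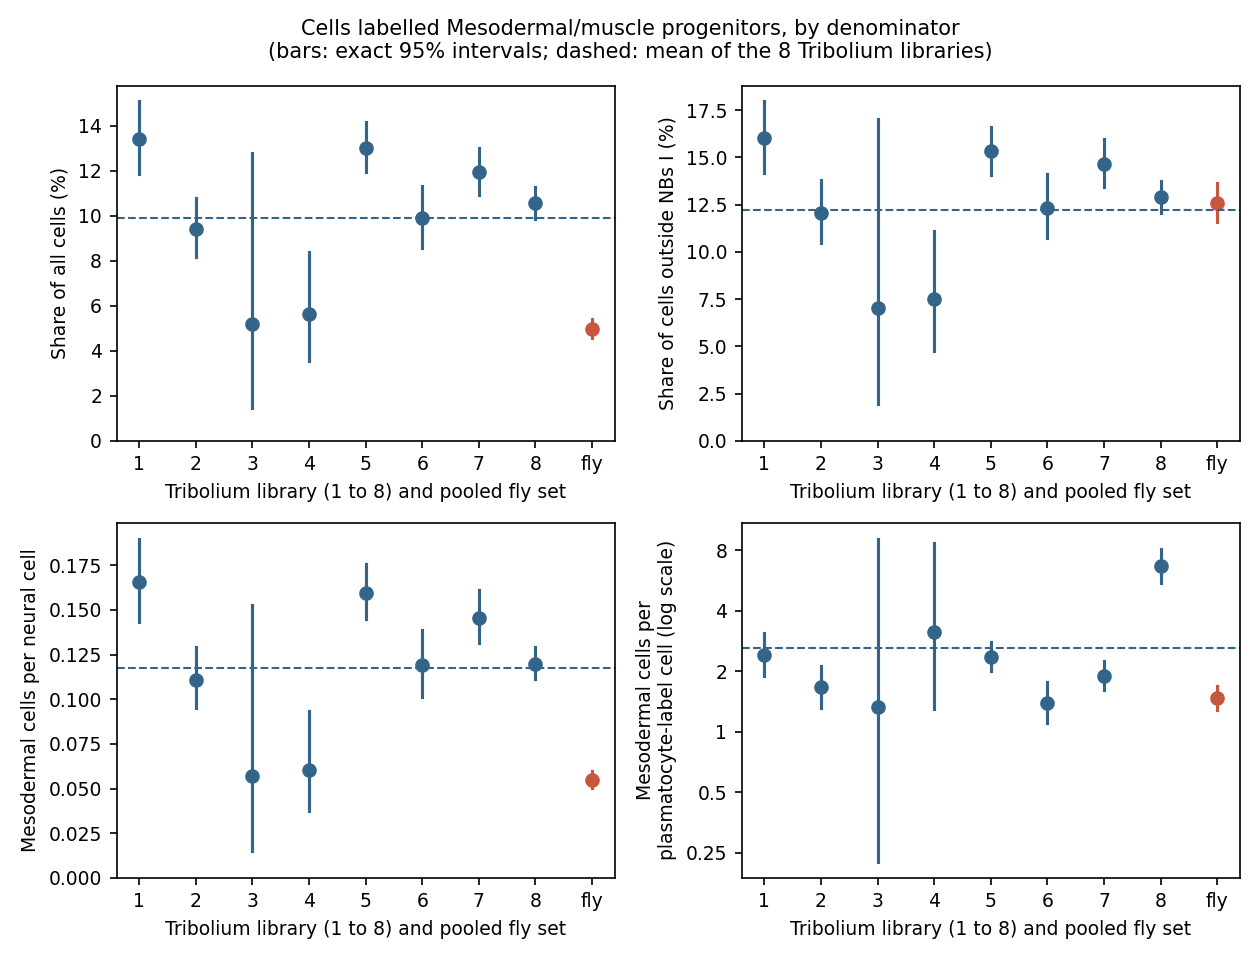
Cells labelled Mesodermal/muscle progenitors in the 8 Tribolium libraries (blue) and the pooled Drosophila set (red), as a share of all cells, as a share of cells outside NBs I, per neural cell and per plasmatocyte-label cell (log axis). Points are values, bars exact 95% intervals and dashed lines the mean of the 8 libraries. At 4.98% of all cells Drosophila lies below each library, although the intervals of libraries 3 and 4 overlap its own. At 12.6% of cells outside NBs I it lies amid them, and library 8 stands apart at 6.65 per plasmatocyte-label cell.

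Set against the nervous system, there were 0.117 ± 0.0411 mesodermal cells per neural cell in Tribolium (SD, n = 8), where neural means the 7 labels for neuroblasts, GMC and newborn neurons. The ratio was highest in library 1 at 0.165 (exact 95% interval 0.143 to 0.190) and library 5 at 0.160 (0.145 to 0.176), with library 7 next at 0.146 (0.132 to 0.161). Libraries 8, 6 and 2 followed at 0.120, 0.119 and 0.111, and libraries 4 and 3 were lowest at 0.0606 (0.0375 to 0.0932) and 0.0571 (0.0151 to 0.153). Here the order of the libraries was the same as outside NBs I, and 14 of 28 pairs had intervals apart.

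Drosophila had 0.0548 mesodermal cells per neural cell (519 of 9470, exact 95% interval 0.0501 to 0.0599), below all 8 beetle values. In counting error alone, the intervals of the 6 libraries of 500 cells or more lay above that of the fly. The intervals of libraries 3 and 4 overlapped it. The beetle mean was 2.14 times the fly value. Once NBs I cells were no longer counted as neural, the fly had 0.164 mesodermal cells per neural cell (0.149 to 0.180) and the beetle 0.152 ± 0.0482 (SD, n = 8), so that the ratio became 0.924. That comparison was added after the data were seen. Per GMC cell, the progeny of neuroblasts, the values were likewise near each other, at 0.268 in Drosophila (0.243 to 0.296) and 0.240 ± 0.0865 in Tribolium (SD, n = 8).

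The other label from the mesodermal germ layer, plasmatocytes/embryonic hemocytes/macrophages, gave a different picture, because library 8 stood apart. That library also stood apart in the shares of some neural labels, given below. It had 6.65 mesodermal cells per plasmatocyte-label cell (805 to 121 cells, exact 95% interval 5.49 to 8.12), and the other 7 libraries had 1.33 to 3.14, with a mean of 2.03 ± 0.651 (SD, n = 7). Over all 8 libraries the mean was 2.61 ± 1.74 (SD, n = 8). Library 4 came next at 3.14 on 22 to 7 cells (1.30 to 8.71), followed by library 1 at 2.42, library 5 at 2.37, library 7 at 1.90, library 2 at 1.66 and library 6 at 1.40. Library 3 had 4 to 3 cells, a ratio of 1.33 (0.226 to 9.10).

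In library 8 the mesodermal side of this ratio was near the equally weighted mean, at 0.120 per neural cell against a mean of 0.117 ± 0.0443 in the other libraries (SD, n = 7). With their cells pooled, which gives the small libraries little weight, the other libraries had 0.140 (exact 95% interval 0.133 to 0.147). Library 8 lay below that, with an interval of 0.111 to 0.129. Its plasmatocyte side was the lowest of the 8, at 0.0180 per neural cell (exact 95% interval 0.0149 to 0.0216) against 0.0609 ± 0.0225 (SD, n = 7), with library 4 close to it at 0.0193 (0.00770 to 0.0401). Without library 8 the chi-square of the mesodermal to plasmatocyte ratio fell from 23.2 to 3.43 times its degrees of freedom.

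Drosophila had 1.48 mesodermal cells per plasmatocyte-label cell (519 to 351 cells, exact 95% interval 1.29 to 1.70), above 2 libraries and below 6. The beetle mean was 1.76 times that value, and 1.37 times without library 8. Libraries 1, 5 and 8 had intervals above that of Drosophila and the remaining 5 overlapped it, in counting error only. In Drosophila the plasmatocyte label came to 0.0371 per neural cell, within the beetle range of 0.0180 to 0.0852.

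The mesodermal cells were then counted per cell of each other label, which leaves all remaining labels out of the value. By the SD of the log2 ratio over libraries, NBs II/INPs/newborn neurons_1? varied least against the mesodermal label (0.56, n = 8), followed by NBs II/INPs/newborn neurons_2? (0.58), GMC (0.64), plasmatocytes/embryonic hemocytes/macrophages (0.75), NBs I (0.79) and Midline_NBs (0.81). NBs II/INPs (1.06) and Sensory NBs (1.21) varied most, both over 7 libraries since library 3 had none of either. Without library 8, which was lowest in both ratios, these SDs were 0.81 and 0.52 (n = 6), and that of the plasmatocyte label was 0.45 (n = 7). Sensory NBs made up 4.63% of all cells in library 8 and at most 0.912% elsewhere, and NBs II/INPs 7.21% and at most 2.17%. Library 8 also had the most newborn neurons_2? (9.50%, elsewhere at most 5.47%) and the least newborn neurons_1? (6.65%, elsewhere at least 10.8%). The SDs of the log2 ratios include counting error, which is larger for rare labels. Library 4, for example, had 1 Sensory NBs cell and 8 NBs II/INPs cells but 186 GMC cells. INPs, intermediate neural progenitors, are the transit-amplifying cells of type II neuroblast lineages, and the question marks are the authors' own.

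The order thus depended on library 8, and it depended on the small libraries as well. Over the 6 libraries of 500 cells or more, the ratio to GMC varied least, with an SD of 0.21 on the log2 scale and 0.283 ± 0.0403 mesodermal cells per GMC cell (SD, n = 6). NBs I came next with an SD of 0.40 and newborn neurons_1? with 0.42. GMC itself varied little there, at 38.3% to 41.8% of all cells, while the mesodermal share ran from 9.42% to 13.4%. A small SD of the ratio therefore does not mean that the 2 labels rose and fell together. Libraries 3 and 4 had only 0.105 and 0.118 mesodermal cells per GMC cell. For library 4 the exact 95% interval of 0.0724 to 0.184 lay below the lowest of the 6 larger libraries, 0.229, whereas that of library 3 reached 0.292.

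**Figure D2:**
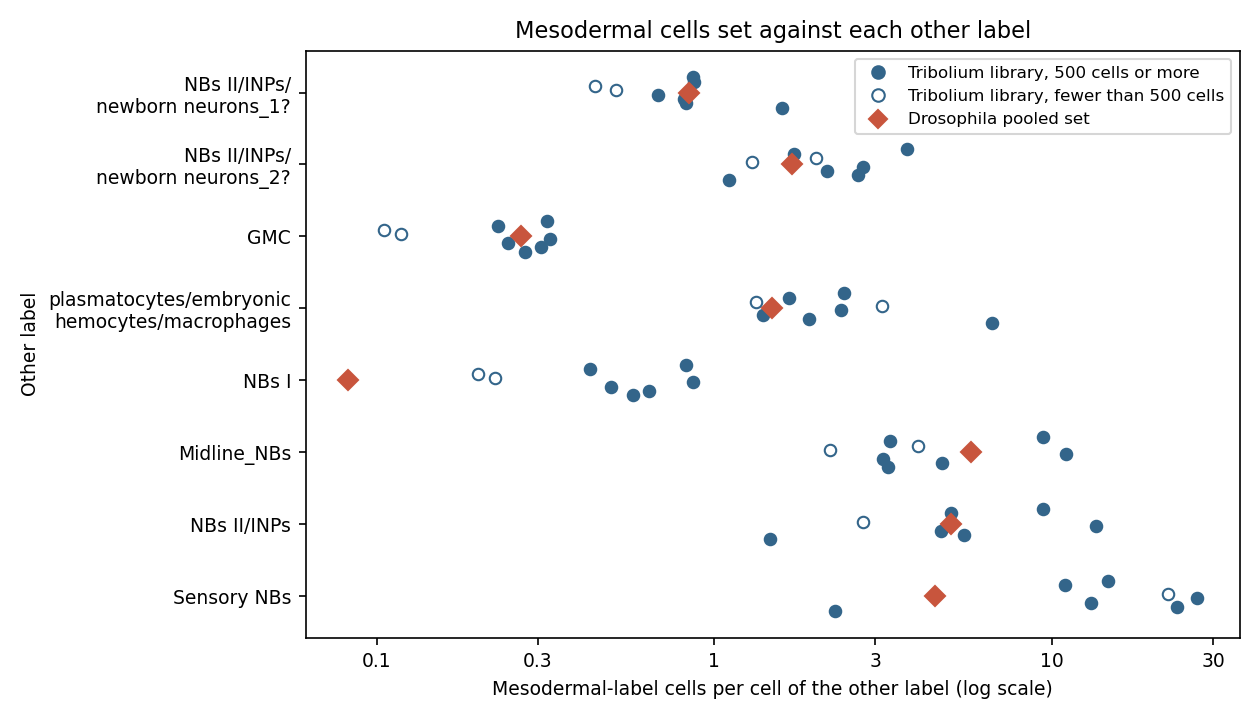
Mesodermal-label cells per cell of each other label (horizontal, log axis) in each Tribolium library (circles, open for fewer than 500 cells) and in the pooled Drosophila set (diamonds); libraries with no cell of a label have no point. The diamond lies outside the beetle range only for NBs I, at 0.0823 against 0.200 to 0.865, among the 8 labels drawn.

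Among the 8 labels drawn, the beetle libraries and the pooled fly set differed most against NBs I. Drosophila had 0.0823 mesodermal cells per NBs I cell, below all 8 libraries, which ranged from 0.200 in library 3 to 0.865 in library 5. For each of the other 7 labels drawn, the Drosophila ratio lay within the range of the libraries. Against newborn neurons_1? it was 0.841 in the fly, and the beetle libraries ran from 0.444 to 1.58. The ratio to newborn neurons_2? was 1.70 in the fly and 1.11 to 3.73 in the beetle. For Midline_NBs, a label named for midline neuroblasts, it was 5.77 and 2.20 to 11.0, and for NBs II/INPs 5.04 and 1.46 to 13.5. For Sensory NBs the fly value of 4.51 lay between library 8, at 2.27, and the other 6 libraries with such cells, at up to 26.9. PCGs, a label that the sources used here do not explain, was not drawn, as it occurred in only 2 of 21148 beetle cells; in the fly 85 of 10425 cells carried it.

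Whether the mesodermal share moved with other features of a library was examined over the 8 beetle libraries for 9 measures. The mesodermal share was taken outside NBs I, and each label other than NBs I as a share of the cells outside both, so that these shares do not move against each other by construction. The NBs I share of all cells fell as the mesodermal share rose (Pearson's r = -0.96, exact two-sided permutation p = 0.00035, adjusted 0.0031 over 9; Spearman's rho = -0.95, exact permutation p = 0.0011, adjusted 0.010). Library 3, with the lowest mesodermal share, had 26.0% NBs I, and library 5, with 15.3% mesodermal cells outside NBs I, had the lowest NBs I share at 15.1%. Libraries 3 and 4 lay farthest from the median, and r among the other libraries was -0.86 (n = 6, exact permutation p = 0.024, adjusted 0.11 over 9), so the direction held in the larger libraries but did not pass the adjustment there. Mesodermal cells are part of the denominator of this NBs I share, so it falls in part by construction when they are more frequent. With NBs I taken instead as a share of the cells outside the mesodermal label, an alternative added after the data were seen, r over the 8 libraries was -0.94 (exact permutation p = 0.00069), and the 6 larger libraries gave -0.83 (n = 6, exact permutation p = 0.038). These are the same libraries and labels in which the fall of NBs I with the mesodermal share had been seen before, so this is no independent evidence of it.

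The mesodermal share also rose with the log10 of the number of cells in a library (r = 0.82, exact permutation p = 0.016, adjusted 0.049; rho = 0.52, exact permutation p = 0.20, adjusted 0.35). The GMC share of the cells outside NBs I and the mesodermal label fell with it (r = -0.86, exact permutation p = 0.016, adjusted 0.049; rho = -0.69, exact permutation p = 0.069, adjusted 0.29). Both relations rest on libraries 3 and 4: without them r was -0.02 and -0.01 (n = 6, exact permutation p = 0.97 and 0.98). These are the libraries with the fewest cells and the lowest mesodermal shares, and the part of library size in those shares was not tested.

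None of the 6 further labels passed the adjustment over the 8 libraries. For 3 of them, leaving out library 8 gave the highest r of any library left out in turn. It was 0.72 for Sensory NBs, 0.75 for newborn neurons_1? and 0.71 for the plasmatocyte label (n = 7, exact permutation p = 0.078, 0.054 and 0.062). Without library 8, r also rose for NBs II/INPs (0.17 to 0.27) and newborn neurons_2? (0.22 to 0.34), and fell for Midline_NBs (-0.10 to -0.15). For the plasmatocyte label r was 0.51 (exact permutation p = 0.18, adjusted 0.41; rho = 0.24, exact permutation p = 0.58, adjusted 0.75), and without libraries 3 and 4 it was 0.09 (n = 6, exact permutation p = 0.94). For newborn neurons_1? r was 0.49 (exact permutation p = 0.23, adjusted 0.41; rho = 0.64, exact permutation p = 0.096, adjusted 0.29) and 0.75 without them (n = 6, exact permutation p = 0.082, adjusted 0.25). Midline_NBs showed r = -0.10 over the 8 libraries (exact permutation p = 0.80, adjusted 0.80; rho = -0.21, exact permutation p = 0.62, adjusted 0.75) and -0.89 without libraries 3 and 4 (n = 6, exact permutation p = 0.024, adjusted 0.11). In the larger libraries Midline_NBs made up 1.64% and 2.03% of the cells outside both labels in libraries 5 and 1, where the mesodermal share was highest, and 3.63% to 4.54% in the other 4.

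**Figure D3:**
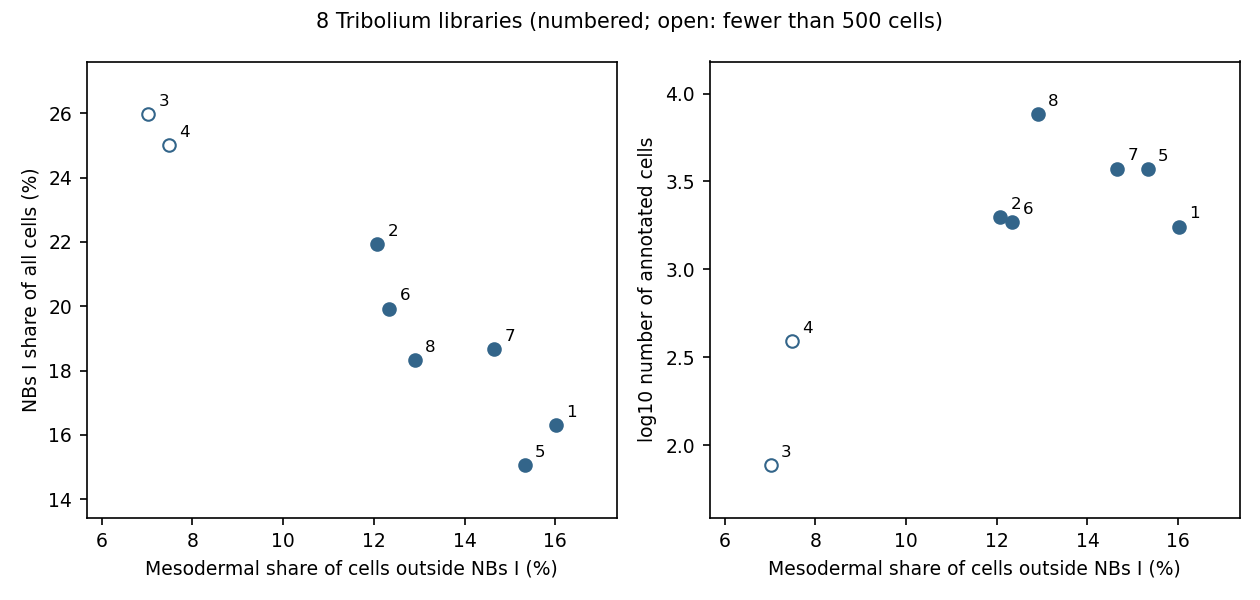
NBs I share of all cells (left) and log10 of the number of annotated cells (right) against the mesodermal share of cells outside NBs I, 1 numbered point per Tribolium library, open for fewer than 500 cells. On the left the points fall from library 3 (7.02%, 26.0%) to libraries 1 and 5; on the right the rise is carried by libraries 3 and 4.

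The Drosophila set gave no replicates. Of its cells, 193 carried a barcode suffix and 10232 did not, and 64 of the 193 had the same 16 bases as a cell without suffix. Mesodermal cells were 9 of the 193 (4.66%, exact 95% interval 2.15% to 8.67%) and 510 of the others (4.98%), so the 2 kinds of barcode could not be distinguished in this share. Barcodes found in both species numbered 3, and none of those cells was mesodermal (0 cells).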

How the data were processed

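The deposited table lists 1 label and 1 species for each cell barcode, and per the file headers it holds no counts, expression values or transfer scores. The submitters' processing notes name Cell Ranger and Scanpy, with no version or role. The table's name speaks of brain NBs and of label transfer between Drosophila and Tribolium. The method and direction of the transfer, genome builds, filters and doublet treatment are not stated. The labels' protocols give a 20 µm strainer, removal of doublets by scatter and of dead cells by DAPI before the fluorescence gate. Beetle cells were assigned to libraries by the barcode suffix 1 to 8, matched to the number in the sample titles.

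Shares and ratios were computed per library, and means and SDs weight libraries equally. Intervals are exact (Clopper-Pearson) 95% intervals, and those of ratios come from the binomial share of both counts; they cover counting error only. No p-value was made from cells. Correlations have exact permutation p-values over all 40320 pairings, two-sided, with Benjamini-Hochberg adjustment over 9 measures at 0.05; labels under 20 beetle cells were left out. All labels are named. The cells, measures and lists were chosen with earlier results of these data known. Alternatives covered weighting, small libraries, denominators, shared barcodes and each library. Software was scipy 1.17.1, numpy 2.4.6 and pandas 2.3.3 under Python 3.11.15, with figures from matplotlib 3.10.9.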

Additional observations from a re-analysis of the deposited data

Results flagged for a closer look

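The gap between the highest or lowest library and its neighbour, divided by the range of the 8 libraries, was computed for 7 mesodermal measures. In 1 it exceeded the 95% critical value of 0.526 for 8 samples: mesodermal cells per plasmatocyte-label cell in library 8, at 6.65, with a gap of 0.660 of the range. Chance flags about 1 in 20 groups, and the 7 measures share their cells. Written as the mesodermal share of the cells with either label, the same counts gave 86.9% in library 8 and 57.1% to 75.9% elsewhere, and the gap of 0.372 did not exceed the value.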

How the results depend on the processing

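The mesodermal share of cells outside NBs I went from 12.2% to 15.8% without the labels with a question mark, by construction, and was 11.7% to 13.0% without each library in turn. Its ratio of the Tribolium mean to Drosophila went from 0.970 to 1.09 with all cells pooled, 1.10 without libraries of fewer than 500 cells, 1.03 without library 3 and 1.02 without library 4, and was 0.928 to 1.03 over all libraries left out in turn. Per neural cell that ratio was 2.14, 2.02 to 2.30 without each library, and 0.924 with NBs I not counted as neural, an alternative added after the data were seen. Per plasmatocyte-label cell it was 1.76, 1.37 without library 8 and at most 1.89 without another, and the mean itself ran from 2.03 to 2.79. The remaining weightings, denominators and exclusions of cells moved these 6 values by less than 1 SD of the libraries. Of the correlations, that with NBs I stayed between -0.97 and -0.94 without each library. Without libraries 3 and 4, which are both the farthest from the median and those of fewer than 500 cells, log10 of cells went to -0.016, GMC to -0.0097, Midline_NBs to -0.89, NBs II/INPs from 0.17 to -0.41, newborn neurons_2? from 0.22 to -0.51 and Sensory NBs from 0.23 to -0.32. Leaving out each library in turn gave 0.69 to 0.90 for log10 of cells, -0.94 to -0.76 for GMC, -0.55 to 0.13 for Midline_NBs, -0.13 to 0.29 for NBs II/INPs, -0.098 to 0.39 for newborn neurons_2?, 0.068 to 0.72 for Sensory NBs, 0.35 to 0.75 for newborn neurons_1? and 0.28 to 0.71 for the plasmatocyte label, the highest of the last 3 each without library 8. The relations with log10 of cells and GMC lost their unadjusted exact permutation p below 0.05 without library 3 (0.10 and 0.072) or library 4 (0.073 and 0.069); the causes were not tested. The number of cells limits libraries 3 and 4, where a count of 0 in library 3 allows a share of up to 3.90%, taken as 3 cells of its 77 and not as an exact interval. No paired analysis was possible because all libraries belong to 1 group.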
